A study of Mus musculus with 19 samples.

Results

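The livers of 10 mice were compared after 4 h of blue light above the arcuate nucleus of the hypothalamus, 5 from mice whose AgRP neurons could be excited by that light (tg) and 5 from mice that lacked the Cre driver (wt). The members are all 14319 genes, of 14576 in the deposited count table, that hold a value in these 10 of the 19 libraries of the series. Mice labelled tg had the genotype AgRP-IRES-Cre tg/wt with ROSA26 ChR2 fl/wt, and mice labelled wt had AgRP-IRES-Cre wt/wt with the same ROSA26 ChR2 fl/wt allele. Every mouse thus carried 1 copy of the Cre-dependent channelrhodopsin-2 gene, and Cre came from the AgRP gene itself, so that the channel could form in cells with an active AgRP gene. All mice were adult and labelled as random fed, had an optic fibre over the arcuate nucleus and were given 473 nm light in 10 ms pulses at 20 Hz, with 3 s on and 1 s off. Light began at zeitgeber time 3.5, in the light phase, food was absent while it was on, and livers were taken at zeitgeber time 7.5. The other 9 libraries are from mice given light for 2 h, 4 tg and 5 wt. Their light began at zeitgeber time 5.5, and their livers were also taken at zeitgeber time 7.5. No tg mouse went without light, so excitation and carrying the driver cannot be told apart.

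AgRP neurons are hypothalamic cells that fire in hunger and drive feeding, and they act on the liver through nerves and hormones. A liver in the hungry state first empties its glycogen, then makes glucose from lactate, glycerol and amino acids, and disposes of the freed nitrogen as urea. Glucocorticoid hormone, glucagon, adrenergic nerves and the lack of insulin turn on genes of these pathways, in part through the glucocorticoid receptor, CREB and FoxO1. The kinase complex mTORC1 promotes growth and restrains autophagy when amino acids and insulin are plentiful, and the circadian clock sets the hours at which many of these genes peak.

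Total counts were 21474255 to 28419872 in tg and 22263155 to 30941927 in wt livers of 4 h. Hepatocyte markers held 89761 to 105660 CPM (counts scaled to a common library total) in tg and 75087 to 97283 CPM in wt livers, and Y-linked genes were found in all 10. Mitochondrially encoded genes took 10.5 to 11.4% of counts in tg and 10.6 to 12.6% in wt livers, except wt replicate 1 at 7.83% (5 against 5, exact two-sided permutation p = 0.937). A pair of libraries stood apart. On a scale from the mean of the wt livers (0) to that of the tg livers (1), taken over genes called without the library in question, tg replicate 3 had a median position of 0.559 and wt replicate 1 of 0.536. The other tg livers lay at 0.909 to 1.11, and the other wt livers at -0.18 to 0.277. Both libraries stayed in all comparisons, and results that change without them are given in that form too.

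Gene levels are given as CPM after scaling by the trimmed mean of M-values, in the order of replicates 1 to 5. Differences are log2 fold changes of tg against wt with their standard error, from a quasi-likelihood fit in edgeR. A gene was called, and is said to have risen or fallen, where its p-value adjusted over all 12493 tested genes by the method of Benjamini and Hochberg was under 0.05. By this rule 1423 genes (11.4%) were called, 718 of them higher (5.75%) and 705 lower (5.64%) in tg livers. Of these 177 rose and 103 fell by over 2-fold, and the median change of all tested genes was -0.01. The CPM ranges of the groups did not overlap for 1023 genes (8.19%), of which 808 were called. Without wt replicate 3 the fit called 895 genes, 458 higher and 437 lower, and without wt replicate 2 it called 465 higher genes. It called 1460 without tg replicate 3, 1887 without wt replicate 1 and 1994 without either of the libraries that stood apart. The call was kept in all 10 of the fits that omit a single library for 760 genes. The 718 higher genes together held 8.40 to 9.48% of CPM in tg and 4.23 to 5.89% in wt livers, whereas the 705 lower genes held 1.45 to 1.55% and 2.00 to 2.40%.

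**Figure D1:**
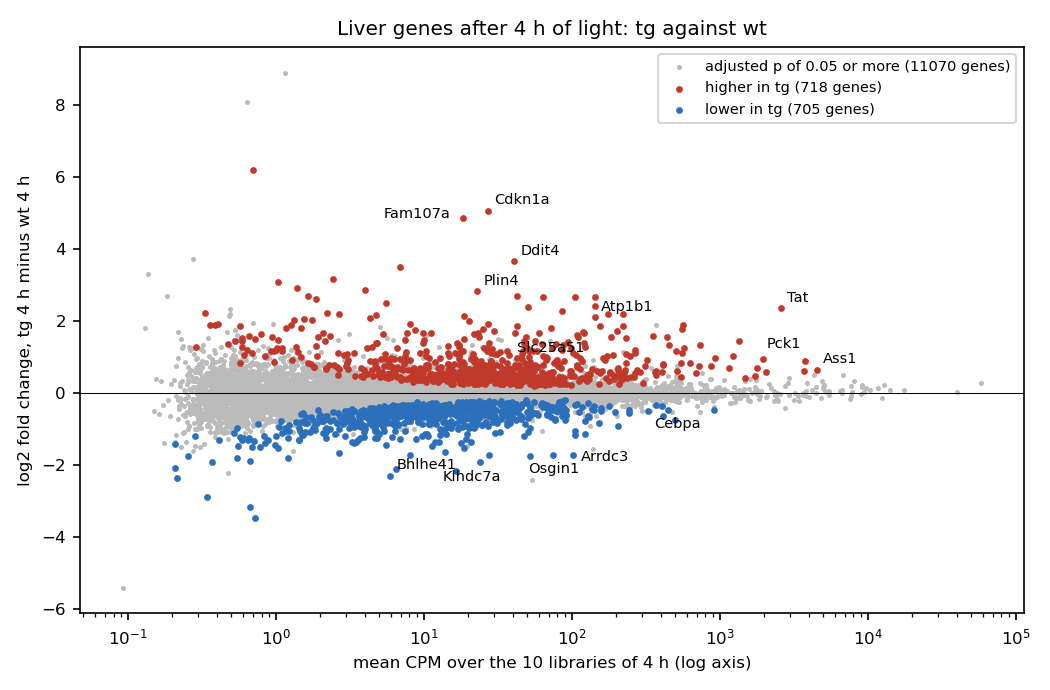
Each point is 1 of 12493 genes, placed by its mean CPM over the 10 livers (log axis) and its log2 fold change of tg against wt. Red points are the 718 genes called higher and blue points the 705 called lower; Cdkn1a and Fam107a lie at the top among the labelled genes and Bhlhe41 at the bottom.

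Where the mean over the 10 livers was 1 CPM or more, the largest called rise was that of Cdkn1a. This gene (ENSMUSG00000023067, chromosome 17 of GRCm38), which encodes the cell cycle inhibitor p21, was at 1.38, 0.908, 0.851, 1.20 and 3.41 CPM in wt livers and at 66.0, 47.2, 8.13, 63.5 and 78.8 CPM in tg livers. Every tg liver lay above every wt liver, and tg replicate 3 was far below the other tg livers. The rise was 5.06 ± 0.58 on the log2 scale, for which the quasi-likelihood test of edgeR gave an adjusted p of 5.73e-05. Ddit4, whose product REDD1 inhibits mTORC1, was at 12.1, 3.96, 3.06, 3.73 and 7.01 CPM in wt and 61.4, 101, 27.1, 129 and 61.1 CPM in tg livers, without overlap, and rose by 3.65 ± 0.53. Gadd45b, a stress sensor of the growth arrest family, was low in wt livers, at 0.552, 0.619, 0.504, 0.276 and 0.459 CPM, and reached 3.04, 3.64, 1.25, 6.33 and 7.79 CPM in tg livers, a rise of 3.17 ± 0.45. Here too the groups were apart and tg replicate 3 was the lowest tg liver. Jaml, a junctional adhesion molecule, rose by 3.501 ± 0.42, from 1.08 ± 0.595 to 12.6 ± 3.97 CPM. Dusp8 rose by 3.08 ± 0.42 and Tmem100 by 2.91 ± 0.48, both from means under 1 CPM in wt livers.

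Growth arrest genes and p53 targets were called more often upward. Of 22 tested, 8 rose and 2 fell (45.5% called, against 11.4% of all genes), with a median of 0.13. Of the rises 7 were called in each of the 10 fits without 1 library. The other 12 members were not called. Among them were the p53 targets Mdm2 (0.21), Ccng1 (-0.17), Bax (-0.02) and Fas (-0.20), and Trp53, the gene of p53 itself (-0.36). Trp53inp1, a p53-induced gene linked to autophagy, was at 54.1, 26.2, 30.9, 34.8 and 49.0 CPM in wt and 281, 258, 99.5, 286 and 314 CPM in tg livers. The groups did not overlap, and tg replicate 3 was far below the other tg livers. Its rise was 2.66 ± 0.28 (adjusted p = 2.43e-05 by edgeR). Btg2, an antiproliferative gene, rose by 1.54 ± 0.25, Plk3, a stress-response kinase, by 1.81 ± 0.43, and Sesn2, a leucine sensor that restrains mTORC1, by 0.77 ± 0.14. Gadd45a (-0.91 ± 0.27) and Bbc3, which encodes the death factor PUMA (-0.70 ± 0.21), were the called falls. Neither fall held in all 10 fits. The count of falls was 4 without tg replicate 3, 1 without wt replicate 1, and 0 without tg replicate 1, 2, 4 or 5 or wt replicate 3 or 4.

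Among 35 regulators of mTORC1, 3 rose and 2 fell, with a median of -0.04. The share called, 14.3%, was close to the 11.4% of all genes. Ddit4 and Sesn2, described above, were among the rises. Rnf152, a ubiquitin ligase of lysosomes that dampens mTORC1, was at 34.8, 49.3, 48.2, 43.4 and 37.9 CPM in wt and at 13.8, 15.3, 12.2, 11.5 and 11.4 CPM in tg livers. All tg livers, replicate 3 included, lay in a narrow band far below the wt livers. The fall was -1.74 ± 0.18 (adjusted p = 8.82e-06 by edgeR). Fnip2, a partner of folliculin in Rag GTPase control, fell by 0.83 on the log2 scale, from 39.8 ± 2.89 to 22.3 ± 3.80 CPM. Rraga, a Rag GTPase that recruits mTORC1 to lysosomes, was the third rise, at 0.28 ± 0.09, and its call ended without tg replicate 1, 2, 3 or 5 or wt replicate 2, 3 or 4 (adjusted p of up to 0.133 by edgeR). The genes of mTORC1 itself, Mtor (0.07 ± 0.12) and Rptor (0.01 ± 0.09), were not called.

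Core autophagy genes, named in the title of the series, moved in both directions. Of 50 tested, 4 rose and 5 fell, or 8.00% and 10.0% against 5.75% and 5.64% of all genes, with a median of 0.02. Ulk1, the kinase that starts autophagy, was at 120.3, 105, 96.3, 98.9 and 106 CPM in wt and 139, 165, 127, 149 and 163 CPM in tg livers, without overlap, and rose by 0.50 ± 0.10 (adjusted p = 0.00240 by edgeR). Rubcn, which encodes Rubicon, an inhibitor of autophagosome maturation, was at 15.3, 15.4, 14.6, 14.8 and 17.3 CPM in wt and 9.04, 9.68, 11.8, 9.01 and 7.75 CPM in tg livers. Its groups were likewise apart, and it fell by 0.71 on the log2 scale. Atg101, a partner of ULK1 (-0.48 ± 0.10), and Atg14, a subunit of the lipid kinase complex (-0.45 ± 0.11), were the other falls called in all 10 fits. Map1lc3b, the LC3 protein of the autophagosome membrane (0.32 ± 0.09), and the receptors Bnip3l (0.23 ± 0.07) and Tax1bp1 (0.25 ± 0.08) were called higher. Wdr45b (-0.58 ± 0.17) and Atg5 (-0.28 ± 0.09) were called lower, and none of these 5 calls held in all 10 fits. The count of rises was 2 without tg replicate 1 or 2 or wt replicate 2, and 1 without tg replicate 4 or 5 or wt replicate 3 or 4. That of falls was 3 without tg replicate 2, 3 or 4 or wt replicate 3 or 4.

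Of 46 lysosome genes, 2 rose and 1 fell (6.52% called, against 11.4% of all genes). Atp6v0d1, a subunit of the lysosomal proton pump, was at 61.4, 65.4, 62.9, 61.5 and 61.6 CPM in wt and 85.4, 81.0, 88.0, 86.3 and 84.6 CPM in tg livers. The change of 0.44 ± 0.08 was small, but both groups were tight and did not overlap. Grn, which encodes progranulin, rose by 0.63 ± 0.16 and Neu1, a sialidase, fell by 0.42 on the log2 scale. In the unfolded protein response, which acts in the endoplasmic reticulum, 2 of 21 genes rose and 2 fell. Ern1, the IRE1 sensor, was at 56.7, 40.5, 44.3, 34.7 and 45.7 CPM in wt and 21.5, 19.9, 27.0, 15.4 and 19.6 CPM in tg livers, without overlap, and fell by 1.10 on the log2 scale (adjusted p = 0.000163 by edgeR). Xbp1, the transcription factor whose mRNA IRE1 splices, was at 168, 348, 358, 256 and 218 CPM in wt and 174, 135, 123.2, 129.7 and 155 CPM in tg livers. Wt replicate 1 lay within the tg range and the other wt livers above it, and Xbp1 fell by 0.91 on the log2 scale. Herpud1, a factor in the removal of misfolded proteins, rose by 1.09 ± 0.19, from 356 ± 96.9 to 758 ± 199.8 CPM. Atf6, another sensor, rose by 0.32 ± 0.10, a call that ended without tg replicate 1, 2, 3 or 5 or wt replicate 2, 3 or 4 (adjusted p of up to 0.127 by edgeR), so that the count of rises was then 1.

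**Figure D2:**
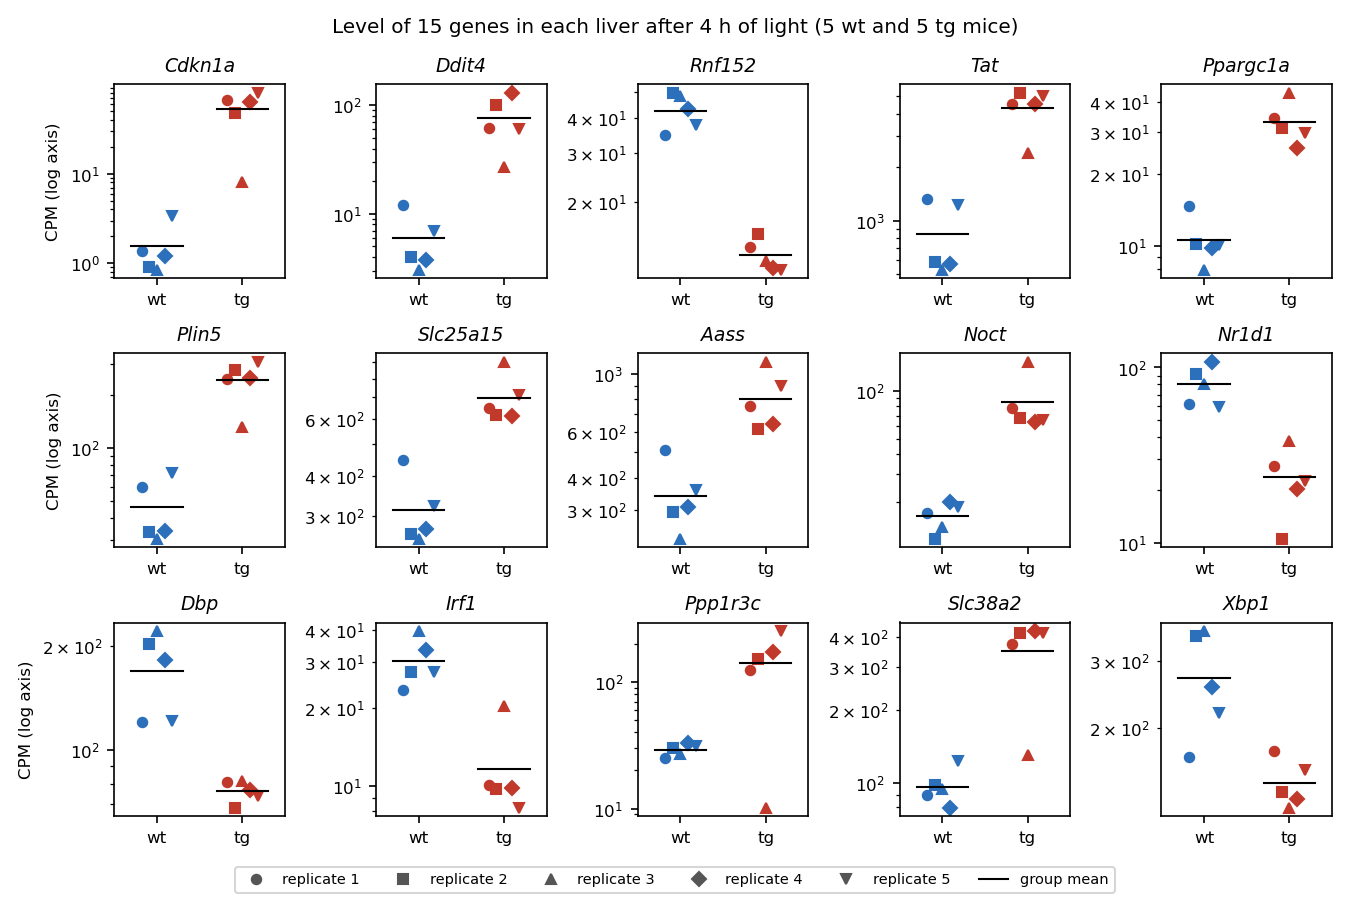
CPM of 15 genes (log axes) in each of the 5 wt (blue) and 5 tg (red) livers of 4 h, with 1 symbol per replicate number and a line at each group mean. Triangles in the tg columns are tg replicate 3. That liver lay below the wt livers for Ppp1r3c, just above them for Slc38a2, and above the other tg livers for Aass, Slc25a15, Noct and Ppargc1a.

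The list with the highest share of calls was that of the glucocorticoid receptor, the handling of its ligand and its targets. Of 27 tested, 20 rose and 0 fell (74.1% called, against 11.4% of all genes), with a median of 1.495. Of the rises, 14 were called in all 10 fits without 1 library (14 to 19 rises in each). The earlier results of these data were known when its members were chosen. Nr3c1, the receptor itself, was at 68.3, 78.1, 53.7, 76.5 and 56.1 CPM in wt and 60.4, 71.6, 56.7, 58.9 and 65.8 CPM in tg livers, with full overlap and no call (-0.09 ± 0.13). Hsd11b1, which makes active hormone from its inert form, was not called either (-0.04 ± 0.11). Tat, the tyrosine aminotransferase and a classic hepatic target, was at 1325, 587, 531, 567 and 1222 CPM in wt and 4525, 5199, 2398, 4508 and 4992 CPM in tg livers. No tg liver reached down to the wt range, though tg replicate 3 was far below the other tg livers. Its rise was 2.35 ± 0.30 (adjusted p = 8.65e-05 by edgeR), and its difference of group means in CPM was the largest of all called genes.

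Feedback genes of the receptor rose with its metabolic targets. Tsc22d3, which encodes the anti-inflammatory protein GILZ, was at 96.7, 38.5, 36.2, 32.3 and 50.4 CPM in wt and 112, 158, 109.7, 153 and 149 CPM in tg livers, a rise of 1.42 ± 0.32 without overlap. Fkbp5, a co-chaperone that lowers the receptor's hormone affinity, was at 90.2, 26.7, 24.0, 31.6 and 143 CPM in wt and 367, 286, 122, 307 and 358 CPM in tg livers. Wt replicate 5 lay above tg replicate 3, and the other livers were apart, with a rise of 2.19 ± 0.54. Sgk1, a kinase of ion transport, rose by 1.503 ± 0.29, Cebpd by 1.65 ± 0.33 and Angptl4, an inhibitor of lipoprotein lipase, by 0.95 ± 0.21. Fam107a, an actin-associated stress gene, was at 2.39, 0.0413, 0.189, 0.138 and 3.01 CPM in wt and 45.0, 46.9, 3.86, 45.8 and 37.5 CPM in tg livers. The groups were apart, but tg replicate 3 was just above wt replicate 5, and the rise was 4.87 ± 0.89. Dusp1, a phosphatase that turns off MAP kinases, was at 18.1, 7.76, 13.8, 6.17 and 11.7 CPM in wt and 77.6, 115, 11.2, 76.9 and 91.1 CPM in tg livers. Here tg replicate 3 lay inside the wt range and the other tg livers were far above it, and the rise was 2.68 ± 0.48. Several members, Ddit4, Gadd45b, Igfbp1 and Lpin1 among them, also belong to other lists described here, so the lists are not separate.

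Promoter sequences are shown for these 2 genes because their windows hold motifs of hormone-responsive factors, and were chosen for it. Of 20 called members of the glucocorticoid list 17 have a window. The receptor element was found in 3 of these (Fam107a, Sgk1 and Mt1) and not in the other 14, among them Tat, Tsc22d3 and Fkbp5, and the CREB site in 2 (Dusp1 and Errfi1). A member was counted where any of its windows held the motif. Fam107a and Sgk1 have several windows, so the shares below for genes with a single window leave them out. Windows run from 250 bases before to 50 after the start of transcription in RefSeq (build GRCm38.p6), and capitals mark the motifs found on either strand. In Fam107a this is the palindromic response element of the glucocorticoid receptor, at position 133 counted from the 5' end of the window. RefSeq lists 3 windows for this gene, and the motif is in 2 of them, which overlap. In Dusp1 they are the CREB site TGACGTCA at position 108 and the E-box CACGTG at position 125. The receptor palindrome was found in 0.475% of all windows of this length, and among tested genes with a single window in 0.292% of all, 1.09% of those called higher and 0 of those called lower. The CREB site was in 1.79% of all windows, and by the same count in 3.21%, 4.38% and 2.42%. A match describes letters and not binding.
Fam107a promoter (chr14:8309730-8310029, minus strand): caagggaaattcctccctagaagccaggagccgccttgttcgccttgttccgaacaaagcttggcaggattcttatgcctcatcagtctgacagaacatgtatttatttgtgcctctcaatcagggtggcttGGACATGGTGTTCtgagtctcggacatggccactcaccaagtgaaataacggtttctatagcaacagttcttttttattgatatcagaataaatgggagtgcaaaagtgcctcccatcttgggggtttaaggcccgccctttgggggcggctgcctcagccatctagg
Dusp1 promoter (chr17:26508423-26508722, minus strand): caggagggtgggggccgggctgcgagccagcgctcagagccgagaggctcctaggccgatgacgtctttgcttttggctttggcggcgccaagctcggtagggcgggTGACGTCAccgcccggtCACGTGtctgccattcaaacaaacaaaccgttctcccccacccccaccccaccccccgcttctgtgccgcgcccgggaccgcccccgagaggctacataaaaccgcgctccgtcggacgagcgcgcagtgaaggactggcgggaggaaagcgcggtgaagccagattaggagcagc

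Genes that make glucose and release it rose in part. Of 14 gluconeogenesis genes 4 rose and 0 fell (28.6% called, against 11.4% of all genes), with a median of 0.11. Pck1, which catalyses the first committed step from oxaloacetate, was at 2961, 2219, 1916, 2679 and 3395 CPM in wt and 5332, 5203, 3447, 5056 and 5312 CPM in tg livers. The groups were apart by a small gap, with tg replicate 3 just above wt replicate 5, and the rise was 0.89 ± 0.18. Ppargc1a, a coactivator of fasting genes, was at 14.8, 10.2, 7.98, 9.81 and 10.1 CPM in wt and 34.3, 31.0, 43.4, 25.6 and 29.7 CPM in tg livers. All tg livers were far above all wt livers and tg replicate 3 was the highest, with a rise of 1.63 ± 0.22 (adjusted p = 0.000122 by edgeR). Got1, the cytosolic aspartate aminotransferase, rose by 1.34 ± 0.30. G6pc, the enzyme that frees glucose from its phosphate, rose by 1.33 ± 0.39, a call that ended without tg replicate 2, 4 or 5 or wt replicate 2, 3 or 5 (adjusted p of up to 0.0901 by edgeR). Fbp1 (0.05 ± 0.16) and Pcx (0.14 ± 0.13), other enzymes of the pathway, were not called.

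The called glycogen genes were 2 targeting subunits, proteins that bring phosphatase 1 to glycogen and favour its synthesis, and 1 kinase. Of 16 glycogen genes 3 rose and 0 fell (18.75% called, against 11.4% of all genes). Each rise was called in all 10 fits, and the median was 0.00. Ppp1r3b, the main hepatic subunit, was at 165, 45.3, 33.9, 74.6 and 84.3 CPM in wt and 269.6, 540.2, 221, 371 and 422 CPM in tg livers, without overlap, and rose by 2.17 ± 0.42. Ppp1r3c was at 24.9, 29.98, 26.9, 33.2 and 31.4 CPM in wt and 124, 152, 10.2, 173 and 252 CPM in tg livers. A single tg liver, replicate 3, lay below every wt liver and the other 4 far above them, and the rise was 2.28 ± 0.50. Gsk3b, a kinase that inactivates glycogen synthase, rose by 0.48 ± 0.12. Among 25 genes of glucose entry, glycolysis and pyruvate control 4 rose and 0 fell (16.0% called). The count of rises was 2 without wt replicate 2 or 3. Pfkfb2, which sets fructose 2,6-bisphosphate, rose by 0.95 ± 0.19.

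Of 22 insulin and FoxO genes 5 rose and 1 fell (27.3% called, against 11.4% of all genes), and their median was 0.07. Foxo1, the transcription factor that insulin keeps out of the nucleus, was at 38.8, 32.6, 30.05, 34.2 and 36.1 CPM in wt and 82.2, 67.3, 52.9, 68.6 and 69.9 CPM in tg livers. The lowest tg liver, replicate 3, was still above the highest wt liver, and the rise was 0.99 ± 0.11 (adjusted p = 2.19e-05 by edgeR). Igfbp1, a secreted binding protein that insulin represses, was at 86.2, 14.3, 11.7, 10.8 and 19.9 CPM in wt and 244, 134, 94.6, 240.1 and 197 CPM in tg livers. Wt replicate 1 stood well above the other wt livers and just below tg replicate 3. The rise was 2.66 ± 0.55, or 3.68 without wt replicate 1. Pik3r1, the regulatory subunit of PI 3-kinase, rose by 0.75 ± 0.12, and Klf15, a transcription factor of fasting metabolism, by 0.50 ± 0.12. Trib3, a pseudokinase that binds AKT, was the called fall (-1.38 ± 0.31), with tg replicate 3 the lowest of all livers.

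Of 30 adrenergic, glucagon and cAMP genes 3 rose and 2 fell, close to the background. Sik3, a salt-inducible kinase, rose by 0.59 ± 0.11. Both falls were lost without tg replicate 2 or 5 or wt replicate 2 or 3, and the count was 1 without tg replicate 3 or 4 or wt replicate 4. In the EGF receptor list, 1 rose and 4 fell of 20 (25.0% called, against 11.4% of all genes), with a median of -0.22. Erbb3 fell by 0.79 on the log2 scale, from 157 ± 38.0 to 90.9 ± 19.5 CPM, without overlap, and Lrig1 (-0.49 ± 0.12), which restrains receptors of this family, and its relative Lrig3 (-0.52 ± 0.13) also fell. The rise, that of Errfi1, a feedback inhibitor (0.68 ± 0.22), was lost in every fit without 1 library except those without tg replicate 3 or wt replicate 1, with an adjusted p of up to 0.123 by edgeR. Without wt replicate 1 the count of rises was 2. In 28 genes of BMP signalling and iron control 0 rose and 2 fell, 7.14% called against 11.4% of all genes. Smad9, a BMP-activated Smad, was at 13.7, 23.7, 13.6, 18.0 and 15.2 CPM in wt and 8.45, 5.21, 5.71, 5.41 and 5.19 CPM in tg livers, apart from each other, and fell by 1.49 on the log2 scale. The other fall, that of Id2 (-0.77 ± 0.22), was lost without tg replicate 2, 4 or 5 or wt replicate 2, 3, 4 or 5 (adjusted p of up to 0.0919 by edgeR). Hamp, the iron hormone hepcidin, was not called (0.13 ± 0.33).

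Among 10 alpha-arrestins and relatives 2 rose and 1 fell, and tg replicate 3 stood apart in 2 of them. Arrdc2 was at 11.04, 10.4, 12.0, 13.4 and 9.73 CPM in wt and 38.3, 46.2, 6.73, 64.1 and 58.6 CPM in tg livers, a rise of 1.92 ± 0.39. In tg replicate 3 its level was below every wt liver. Arrdc3, an adaptor in receptor trafficking, was at 243, 136, 125, 209 and 68.8 CPM in wt and 26.9, 11.5, 137, 24.2 and 34.3 CPM in tg livers. The fall was -1.74 ± 0.53, or -2.69 without tg replicate 3, whose level lay within the wt range. Its call ended without tg replicate 1, 2, 4 or 5 or wt replicate 1, 2, 3 or 4 (adjusted p of up to 0.103 by edgeR). Nedd4l, a ubiquitin ligase, rose by 0.47 ± 0.12, a call that ended without tg replicate 5 or wt replicate 2. The count of rises was then 1. The count of falls was 2 without tg replicate 3, and 0 without tg replicate 1, 2, 4 or 5 or wt replicate 1, 2, 3 or 4.

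Nitrogen handling was called upward and not downward. Of 10 urea cycle genes 4 rose (40.0% called), with a median of 0.40. Of 51 genes of amino acid breakdown 10 rose (19.6% called), with a median of 0.16. The share called among all genes was 11.4%. Slc25a15, which carries ornithine into mitochondria, was at 449, 264, 255, 274 and 323 CPM in wt and 648, 619, 898, 613 and 710.0 CPM in tg livers. The groups were apart, tg replicate 3 was the highest tg and replicate 1 the highest wt liver, and the rise was 1.16 ± 0.18 (adjusted p = 0.000288 by edgeR). Ass1, the argininosuccinate synthase, rose by 0.65 ± 0.18 (adjusted p of up to 0.0732 by edgeR in the fits without 1 library), Asl, the lyase of the next step, by 0.74 ± 0.20, and Arg1, which releases urea, by 0.47 ± 0.14. None of these 3 calls held in all 10 fits. The call of Ass1 ended without tg replicate 3 or 5 or wt replicate 2, 3 or 4, that of Asl without wt replicate 2 or 3, and that of Arg1 without tg replicate 1, 2 or 3 or wt replicate 2, 3 or 4. The urea cycle count was 2 without tg replicate 3 or wt replicate 4 and 1 without wt replicate 2 or 3. Otc, which joins ornithine and carbamoyl phosphate, was not called (-0.01 ± 0.12).

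In amino acid breakdown, Sds, the serine dehydratase, was at 320.3, 219, 212, 202 and 318 CPM in wt and 879, 839.9, 1003, 675 and 905 CPM in tg livers, with a wide gap between groups, and rose by 1.76 ± 0.21 (adjusted p = 3.17e-05 by edgeR). Aass, the first enzyme of lysine breakdown, was at 513, 295, 233, 308 and 359 CPM in wt and 754, 614, 1107, 645 and 898 CPM in tg livers. The groups were apart, again with tg replicate 3 as the highest liver, and the rise was 1.24 ± 0.18. Tdo2, the tryptophan dioxygenase, rose by 0.94 ± 0.16 from 1337 ± 382 to 2562 ± 232 CPM, Gpt2, an alanine aminotransferase, by 0.75 ± 0.16, and Hpd, of tyrosine breakdown, by 0.56 ± 0.12. These 3 held in all 10 fits. Not every enzyme of the list was called, as with Prodh, of proline breakdown (0.24 ± 0.12), and Bcat2, of the branched chains (-0.52 ± 0.18).

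Transporters that bring amino acids into the cell were called higher in 5 of 20 cases (25.0% called, against 11.4% of all genes). Their median was 0.26. Slc38a2, a carrier of small neutral amino acids, was at 89.4, 98.3, 95.3, 79.6 and 123.02 CPM in wt and 374, 412, 130.4, 420.3 and 415 CPM in tg livers. A wide gap parted tg replicate 3 from the other tg livers, and that library lay just above the highest wt liver. The rise was 1.85 ± 0.23 (adjusted p = 7.48e-05 by edgeR). Slc7a2, a carrier of arginine and lysine, was at 1083, 751, 563, 685 and 929 CPM in wt and 1806, 1542, 1662, 1410.1 and 1793 CPM in tg livers, a rise of 1.03 ± 0.19 in which tg replicate 3 lay among the other tg livers. Slc16a10, an aromatic amino acid carrier, rose by 0.53 ± 0.12. Of 41 mitochondrial carriers 7 rose and 2 fell (22.0% called). Slc25a51, the mitochondrial NAD carrier, was at 64.9, 50.2, 51.0, 61.3 and 62.8 CPM in wt and 196, 169, 164, 181 and 203 CPM in tg livers. All tg livers lay far above all wt livers, and the rise of 1.65 ± 0.14 had the second smallest adjusted p of all genes (7.44e-07 by edgeR). Slc25a22, a glutamate carrier, rose by 0.91 ± 0.15, and Slc25a25, an ATP-Mg carrier, by 1.72 ± 0.39, with tg replicate 3 within the wt range for the latter. Slc25a42, a coenzyme A carrier, fell by 0.50 on the log2 scale. The count of falls was 1 without tg replicate 1 or 4 or wt replicate 2, 3 or 4.

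**Figure D3:**
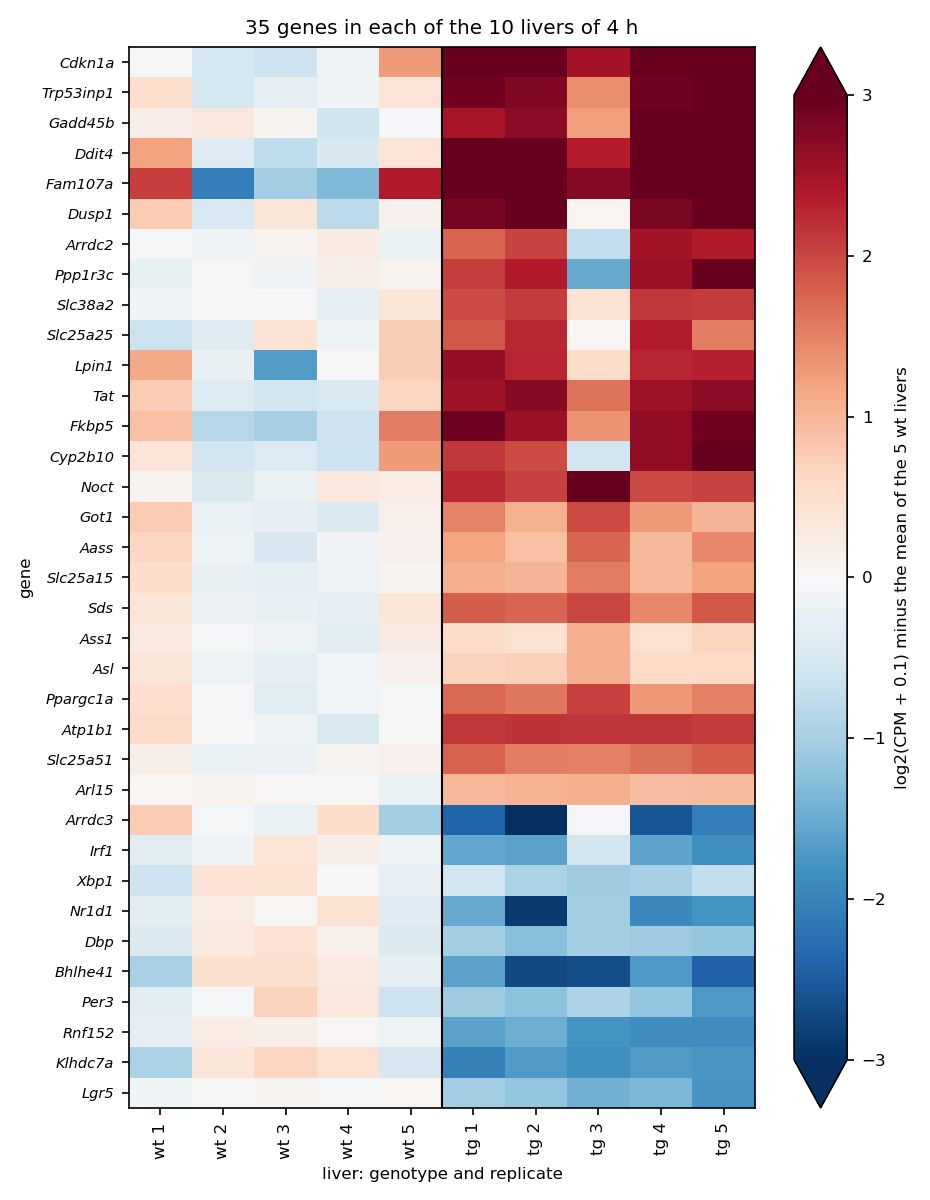
Each row is 1 of 35 genes and each column 1 liver, wt replicates 1 to 5 and then tg replicates 1 to 5. Colour is log2(CPM + 0.1) minus the mean of the 5 wt livers, limited at 3. In tg replicate 3 Dusp1, Slc25a25, Cyp2b10 and Arrdc3 are near the wt livers, and Arrdc2 and Ppp1r3c lie below them. For Noct, Got1, Aass and Ass1 that liver is the highest of all.

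Lipid genes were called more often in the droplet list than in the synthesis lists, a difference that was not tested. Of 22 genes of droplet coats, lipases and lipins 5 rose and 1 fell (27.3% called, against 11.4% of all genes), with a median of 0.11. Among the 16 not called were the coats Plin2 (-0.25) and Plin3 (-0.26), and Cidec (1.48). Plin5, a coat that ties droplets to mitochondria, was at 59.7, 33.1, 30.4, 33.4 and 72.2 CPM in wt and 247, 278, 131, 251 and 307 CPM in tg livers. The groups were apart, with tg replicate 3 lowest among tg and wt replicate 5 highest among wt livers, and the rise was 2.41 ± 0.31 (adjusted p = 0.000122 by edgeR). Plin4, another coat, was at 6.32, 2.73, 2.49, 10.3 and 6.88 CPM in wt and 44.3, 39.3, 23.5, 48.8 and 45.2 CPM in tg livers, again apart, and rose by 2.82 ± 0.52. Lpin1, a phosphatidate phosphatase and coactivator, rose by 1.89 ± 0.55 from 241 ± 147 to 894 ± 356 CPM. Its level in tg replicate 3, 291 CPM, lay within the wt range, and its call ended without tg replicate 1, 2, 4 or 5 or wt replicate 2, 3 or 4 (adjusted p of up to 0.0870 by edgeR). The related Lpin2 rose by 0.79 ± 0.20. Lipe, hormone-sensitive lipase, fell by 0.69 on the log2 scale. The count of rises was 3 without tg replicate 1, 4 or 5 or wt replicate 2, 3 or 4, and that of falls was 2 without wt replicate 1. Fatty acid synthesis (1 of 19 higher and 1 lower), cholesterol (1 of 25 and 1) and fatty acid oxidation (2 of 34 and 0) gave few calls beside the background of 5.75% and 5.64%. The rise of fatty acid synthesis was lost without tg replicate 1, 4 or 5 or wt replicate 2 or 3. That of cholesterol was lost in every fit without 1 library except those without tg replicate 3 and wt replicate 1, the latter with 2 rises, and 3 falls were called there without wt replicate 5. Fatty acid oxidation had 1 rise without tg replicate 5 and 0 without wt replicate 2 or 3. Mid1ip1, an activator of acetyl-CoA carboxylase, fell by 1.11 on the log2 scale, from 41.1 ± 7.60 to 19.1 ± 4.55 CPM, without overlap. Stard4, a sterol carrier, fell by 0.66 on the log2 scale.

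Genes of the circadian clock were called in both directions. The transcription factor pair of BMAL1, made from Arntl, and CLOCK turns on the Per, Cry, Nr1d1 and Dbp genes, and the products of the first 3 repress the pair or Arntl in turn. Of 23 genes 8 rose and 5 fell (56.5% called, against 11.4% of all genes), with a median of 0.17. Of these calls 7 rises and 4 falls held in all 10 fits. Livers were all taken at the same zeitgeber time, so the groups do not differ in the hour of sampling. Nr1d1, which encodes the repressor REV-ERB-alpha, was at 61.9, 91.3, 80.1, 107 and 59.8 CPM in wt and 27.4, 10.6, 38.1, 20.4 and 22.4 CPM in tg livers. Every tg liver was below every wt liver, and the fall was -1.75 ± 0.35 (adjusted p = 0.00408 by edgeR). Arntl was at 1.32, 0.867, 0.631, 1.38 and 1.25 CPM in wt and 3.24, 2.16, 3.67, 1.93 and 2.32 CPM in tg livers, apart and in the opposite direction, a rise of 1.29 ± 0.32. Nfil3, another gene that REV-ERB-alpha represses, was at 7.82, 6.98, 10.7, 18.6 and 6.62 CPM in wt and 25.8, 20.3, 11.4, 37.8 and 27.5 CPM in tg livers. Wt replicate 4 lay above tg replicate 3, and the rise was 1.28 ± 0.33.

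The activators and repressors of clock output moved with them. Dbp, an activator of D-box genes, was at 121, 203, 221, 183 and 122 CPM in wt and 80.7, 68.3, 81.6, 76.7 and 73.5 CPM in tg livers, a tight tg group below all wt livers, and fell by 1.16 on the log2 scale (adjusted p = 0.000341 by edgeR). Per3 was at 20.5, 24.7, 42.1, 33.0 and 16.6 CPM in wt and 12.3, 11.1, 13.6, 11.5 and 7.75 CPM in tg livers, also apart, and fell by 1.28 on the log2 scale. Bhlhe41, which encodes the E-box repressor DEC2, was at 4.63, 12.96, 12.96, 11.1 and 7.57 CPM in wt and 2.95, 1.33, 1.36, 2.73 and 1.63 CPM in tg livers. Its fall of -2.31 ± 0.39 was the largest by fold among called genes of at least 1 CPM, and wt replicate 1 was the wt liver nearest the tg group. Ciart, a repressor of CLOCK and BMAL1, was at 13.6, 20.9, 14.6, 20.6 and 18.0 CPM in wt and 35.9, 49.6, 20.2, 52.0 and 44.9 CPM in tg livers. Only tg replicate 3 overlapped the wt livers, and the rise was 1.21 ± 0.22. Noct, a rhythmic phosphatase of NADP, was at 17.2, 11.8, 14.1, 20.0 and 18.7 CPM in wt and 78.1, 67.2, 151, 63.8 and 66.0 CPM in tg livers, with tg replicate 3 far above the other tg livers. It rose by 2.38 ± 0.34. Cry1 rose by 0.81 ± 0.20, Rora, an activator of Arntl, by 0.55 ± 0.12, and Usp2 by 0.80 ± 0.19. The other members of these families were not all called, among them Per2 (-0.23 ± 0.16), Nr1d2 (-0.03 ± 0.08), Tef (-0.21 ± 0.10) and Clock (0.36 ± 0.20).

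The windows around the starts of 6 clock genes are printed because they hold motifs of the clock and of related factors, and were chosen for it. Of 13 called clock genes 12 have a window, and 7 of these hold at least 1 of the 6 motifs searched, Per1 in a window not printed. A gene was counted where any of its windows held a motif, unlike in the shares below for genes with a single window. No match was found for Nr1d1, Dbp, Noct, Rora and Usp2, which says only that these letters are not in their windows. Build, extent and capitals are as above, and positions count from the 5' end of the window. The REV-ERB half-site TAGGTCA, or its reverse complement, stands at position 281 in Arntl and at 239 in Nfil3. The E-box CACGTG stands at 191 in Cry1, at 135, 193 and 207 in Ciart and at 98 in Bhlhe41. Cry1 also holds the FoxO site GTAAACA at 156, and Per3 holds the D-box TTANGTAA at 46 and 93. For Arntl, RefSeq gives 2 windows and the one with the half-site is shown. The E-box was in 7.15% of all windows, and among tested genes with a single window in 10.2% of all, 11.2% of those called higher and 11.2% of those called lower. The half-site was in 2.61% of all windows and, in that order, in 1.95%, 2.19% and 2.42%. The D-box was in 2.32% and in 1.42%, 0.438% and 1.32%, and the FoxO site in 3.65% and in 2.54%, 1.09% and 3.96%.
Arntl promoter (chr7:113207261-113207560, plus strand): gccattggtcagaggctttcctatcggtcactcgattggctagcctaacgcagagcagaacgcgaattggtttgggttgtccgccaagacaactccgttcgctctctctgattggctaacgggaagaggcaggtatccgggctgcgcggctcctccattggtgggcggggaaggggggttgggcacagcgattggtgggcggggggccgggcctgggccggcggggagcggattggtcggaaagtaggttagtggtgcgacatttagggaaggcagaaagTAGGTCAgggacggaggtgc
Nfil3 promoter (chr13:52980990-52981289, minus strand): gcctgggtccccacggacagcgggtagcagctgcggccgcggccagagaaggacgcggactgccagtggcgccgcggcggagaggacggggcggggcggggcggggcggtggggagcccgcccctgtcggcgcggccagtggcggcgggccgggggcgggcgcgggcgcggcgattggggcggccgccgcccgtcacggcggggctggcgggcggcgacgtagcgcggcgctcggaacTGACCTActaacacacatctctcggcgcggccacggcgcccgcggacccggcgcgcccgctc
Cry1 promoter (chr10:85185005-85185304, minus strand): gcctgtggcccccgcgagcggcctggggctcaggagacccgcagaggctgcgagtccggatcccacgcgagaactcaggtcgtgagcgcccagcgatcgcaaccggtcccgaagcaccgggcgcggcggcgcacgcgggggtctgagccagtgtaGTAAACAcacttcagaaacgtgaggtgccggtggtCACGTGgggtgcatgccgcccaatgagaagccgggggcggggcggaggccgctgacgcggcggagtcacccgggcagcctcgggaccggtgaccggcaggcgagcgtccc
Ciart promoter (chr3:95882179-95882478, minus strand): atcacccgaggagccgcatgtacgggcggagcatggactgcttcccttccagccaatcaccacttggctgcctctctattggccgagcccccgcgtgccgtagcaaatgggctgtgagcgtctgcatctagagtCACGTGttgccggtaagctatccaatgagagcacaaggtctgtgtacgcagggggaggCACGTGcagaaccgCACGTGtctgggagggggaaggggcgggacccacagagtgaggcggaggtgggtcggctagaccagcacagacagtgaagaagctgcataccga
Bhlhe41 promoter (chr6:145865371-145865670, minus strand): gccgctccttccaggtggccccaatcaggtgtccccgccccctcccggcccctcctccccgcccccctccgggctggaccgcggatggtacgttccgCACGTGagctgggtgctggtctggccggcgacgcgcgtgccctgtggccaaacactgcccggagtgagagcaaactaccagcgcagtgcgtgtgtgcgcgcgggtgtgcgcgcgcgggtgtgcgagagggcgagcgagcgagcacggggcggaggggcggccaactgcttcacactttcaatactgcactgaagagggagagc
Per3 promoter (chr4:151044616-151044915, minus strand): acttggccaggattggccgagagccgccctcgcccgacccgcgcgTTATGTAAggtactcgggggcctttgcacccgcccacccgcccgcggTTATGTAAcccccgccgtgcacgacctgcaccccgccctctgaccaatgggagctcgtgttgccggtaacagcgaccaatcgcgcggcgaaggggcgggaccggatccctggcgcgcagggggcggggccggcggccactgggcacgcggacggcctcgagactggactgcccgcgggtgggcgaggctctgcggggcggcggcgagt

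Immediate early genes, which answer signals fast and briefly, numbered 24, of which 6 rose and 1 fell (29.2% called, against 11.4% of all genes). Their median was 0.48. The other 17 members were not called, among them Fos (0.23), Egr1 (-0.23), Junb (-0.72) and Myc (0.76). Jun was at 13.9, 7.18, 7.47, 6.54 and 5.08 CPM in wt and 29.1, 28.8, 11.8, 55.2 and 35.9 CPM in tg livers. Tg replicate 3 lay inside the wt range and the others above it, with a rise of 1.99 ± 0.40. Zfp36, a protein that destabilises cytokine mRNAs, rose by 0.88 ± 0.19, from 62.4 ± 14.4 to 115 ± 27.1 CPM, and Rhob, a small GTPase, by 0.69 ± 0.16. The call of Nr4a1 (1.66 ± 0.46) ended without tg replicate 4, whose level of 8.62 CPM stood above all others, and without wt replicate 2, 3, 4 or 5. Without tg replicate 3 and wt replicate 1 together 13 members were called higher. The single fall, that of Ier5, was lost without tg replicate 1, 2, 4 or 5 or wt replicate 1, 2, 3 or 4, and 2 falls were called without wt replicate 5. Of 13 members of the KLF family 2 rose and 0 fell (15.4% called). The count of rises was 4 without wt replicate 1. Klf3 was at 50.5, 37.8, 34.6, 45.1 and 51.2 CPM in wt and 94.8, 131, 51.6, 119.7 and 124 CPM in tg livers, apart by less than 1 CPM because of tg replicate 3, and rose by 1.25 ± 0.19.

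Transcription factors of hepatocyte identity changed in both directions, 5 higher and 5 lower of 26 (38.5% called, against 11.4% of all genes). Their median was -0.12. Without tg replicate 1 the count of falls was 8. Cebpa, a factor of the mature hepatocyte, was at 353, 443, 365, 380.3 and 394 CPM in wt and 286, 229.8, 288, 245 and 303 CPM in tg livers, without overlap, and fell by 0.52 on the log2 scale (adjusted p = 0.00308 by edgeR). Hnf4a, a master factor of the liver, rose by 0.54 ± 0.14, from 561 ± 137 to 816 ± 77.2 CPM. Nr2f2 fell by 0.80 on the log2 scale, from 26.8 ± 3.66 to 15.4 ± 1.75 CPM, without overlap. Onecut2 (-0.52 ± 0.13) also fell. Nr1i2, which encodes the drug sensor PXR, was at 77.6, 51.1, 50.4, 57.8 and 64.0 CPM in wt and 93.3, 101, 109, 97.0 and 125 CPM in tg livers, apart, and rose by 0.80 ± 0.12. Gata6 rose by 0.91 ± 0.15.

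Along the liver lobule, from the portal vein to the central vein, the pericentral side is set by Wnt signals. Of 21 Wnt and pericentral genes 1 rose and 3 fell, with a median of -0.15, and 2 rose without tg replicate 3. Lgr5, a Wnt amplifier of pericentral hepatocytes, was at 4.42, 5.04, 5.17, 4.70 and 5.11 CPM in wt and 2.31, 2.11, 1.74, 1.85 and 1.36 CPM in tg livers. Both groups were tight and far apart, and the fall was -1.39 ± 0.19 (adjusted p = 9.69e-05 by edgeR). Sp5 (-0.98 ± 0.23) and Rnf43, a ubiquitin ligase that limits Wnt receptors (-0.59 ± 0.15), both direct Wnt targets, fell as well. The rise was that of Slc1a2, a glutamate transporter (0.41 ± 0.10). The other 17 members were not called, among them Axin2 (-0.04), Glul (0.17), Cyp2e1 (0.02) and Notum (-0.44). Of 14 periportal genes 4 rose (28.6% called), namely Sds, Pck1, Ass1 and Arg1 with the values above, and the median was 0.37. The other 10 were not called, among them Cyp2f2 (0.10), Hal (-0.02), Cdh1 (-0.31) and Cps1 (0.50). The count of rises was 2 without tg replicate 3 or wt replicate 2, 3 or 4. Fewer cells of a kind and less RNA in each cell cannot be told apart in bulk tissue, here or in any other result.

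Drug metabolism was near the background, with 4 higher and 2 lower of 45 cytochrome P450s and their receptors and 3 and 3 of 52 phase II enzymes. Por, the electron donor of all microsomal P450s, was at 489.8, 336, 319.8, 367 and 459 CPM in wt and 754, 649, 659, 678 and 764 CPM in tg livers, without overlap, and rose by 0.83 ± 0.17. Ahr, the dioxin receptor, rose by 1.16 ± 0.22, with tg replicate 3 inside the wt range. Cyp2b10, a P450 that phenobarbital induces, rose by 2.13 ± 0.55, a call that ended without tg replicate 5 or wt replicate 2 or 3 (adjusted p of up to 0.0622 by edgeR). Sult1e1, the oestrogen sulfotransferase, rose by 2.21 ± 0.49, from 0.776 ± 0.468 to 3.64 ± 1.51 CPM, and Sult1d1 by 1.05 ± 0.26. The count of P450 falls was 1 or 0 in each fit without 1 library except that without wt replicate 1, and the count of phase II falls was 1 without wt replicate 2. Fmo5, a monooxygenase outside these lists, was at 986, 589.6, 507, 640.0 and 936 CPM in wt and 1729, 2384, 1799, 1809 and 2226 CPM in tg livers, apart, and rose by 1.44 ± 0.18. In the NRF2 list 1 of 16 rose and 1 fell (12.5% called, against 11.4% of all genes), or 2 fell without tg replicate 3. The rise was that of Hmox1, the heme oxygenase (0.60 ± 0.19), with groups that overlap, and the call ended without tg replicate 3, 4 or 5 or wt replicate 2, 3, 4 or 5 (adjusted p of up to 0.161 by edgeR). Osgin1, an oxidative stress gene, fell (-1.72 ± 0.33), from 115 ± 43.2 to 34.9 ± 13.3 CPM, without overlap.

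Interferon genes were called downward and not upward. Of 42 tested 8 fell and 0 rose, with a median of -0.18, and 5 falls held in all 10 fits. Irf1, an interferon-induced factor, was at 23.5, 27.5, 39.5, 33.5 and 27.4 CPM in wt and 10.1, 9.73, 20.4, 9.85 and 8.25 CPM in tg livers. The groups were apart, and tg replicate 3 was by far the highest tg liver. It fell by 1.37 on the log2 scale (adjusted p = 0.000553 by edgeR). Ifnar1, a subunit of the type I receptor, was at 31.5, 37.0, 34.8, 35.1 and 31.6 CPM in wt and 23.4, 25.4, 25.2, 24.4 and 25.2 CPM in tg livers, without overlap, and fell by 0.46 on the log2 scale. The peptide transporter Tap1 (-0.87 ± 0.15) and the immunoproteasome subunit Psmb9 (-0.84 ± 0.19) fell too. The mean log2 deviation of the list from the wt mean was 0.18 in tg replicate 3 and -0.45 to -0.35 in the other tg livers, so this library lay among the wt livers (-0.21 to 0.25). Without it and wt replicate 1, 14 members were called lower.

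In the NF-kB list 4 rose and 5 fell of 26 (34.6% called, against 11.4% of all genes). Vcam1, an adhesion molecule, was at 15.2, 8.13, 8.07, 6.73 and 11.1 CPM in wt and 24.4, 25.0, 17.5, 34.0 and 22.9 CPM in tg livers, apart, and rose by 1.32 ± 0.24. Birc3, an inhibitor of cell death (-0.59 ± 0.11), fell. The other 4 falls, among them Il1b (-1.90 ± 0.55) and Tlr2 (-1.18 ± 0.36), did not hold in all 10 fits, and the count of falls was 1 without tg replicate 1, 2 or 5 or wt replicate 3. The call of Il1b ended without these same 4 libraries and that of Tlr2 without tg replicate 1, 2, 3 or 5 or wt replicate 2 or 3. Kupffer cell and macrophage markers, 11 of 11 tested, summed to 181 to 401 CPM in tg and 198 to 348 CPM in wt livers, with 0 called. T and NK cell markers summed to 2.90 to 4.73 and 2.67 to 4.91 CPM, neutrophil markers to 1.33 to 16.6 and 1.47 to 7.60 CPM, and none was called. Among 32 acute phase genes 1 rose, Il6ra, a receptor subunit for interleukin 6 (1.27 ± 0.30), and the count was 2 without tg replicate 3 or 5 or wt replicate 5.

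None of 80 ribosomal protein genes, 77 nuclear genes of oxidative phosphorylation, 13 mitochondrially encoded genes, 20 lipoprotein genes or 17 coagulation genes passed the test. Of 26 cell cycle genes 1 rose and 2 fell, close to the background. Cdk4, a kinase of entry into the cycle, fell (-0.39 ± 0.08), from 30.4 ± 1.12 to 23.2 ± 2.47 CPM, without overlap, and this call held in all 10 fits. That of Cdk6, its relative (-0.40 ± 0.11), ended without wt replicate 3 (adjusted p of 0.0614 by edgeR). The rise was that of Rrm2, a subunit of ribonucleotide reductase (1.10 ± 0.32), a call that ended without tg replicate 2 or 4 or wt replicate 2, 3, 4 or 5 (adjusted p of up to 0.0964 by edgeR). The ribosomal protein genes had a median of -0.11, or -0.01 with offsets for transcript length, and took 1.47 ± 0.128% of counts in tg and 1.68 ± 0.109% in wt livers (SD, n = 5, exact two-sided permutation p = 0.0317). Markers of stellate cells, cholangiocytes, B cells, erythroid cells and acinar cells were not called, and of 11 sinusoidal endothelial markers Stab1 alone was (0.40 ± 0.12), a call that ended without tg replicate 1, 4 or 5 or wt replicate 2, 3 or 4 (adjusted p of up to 0.0820 by edgeR).

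**Figure D4:**
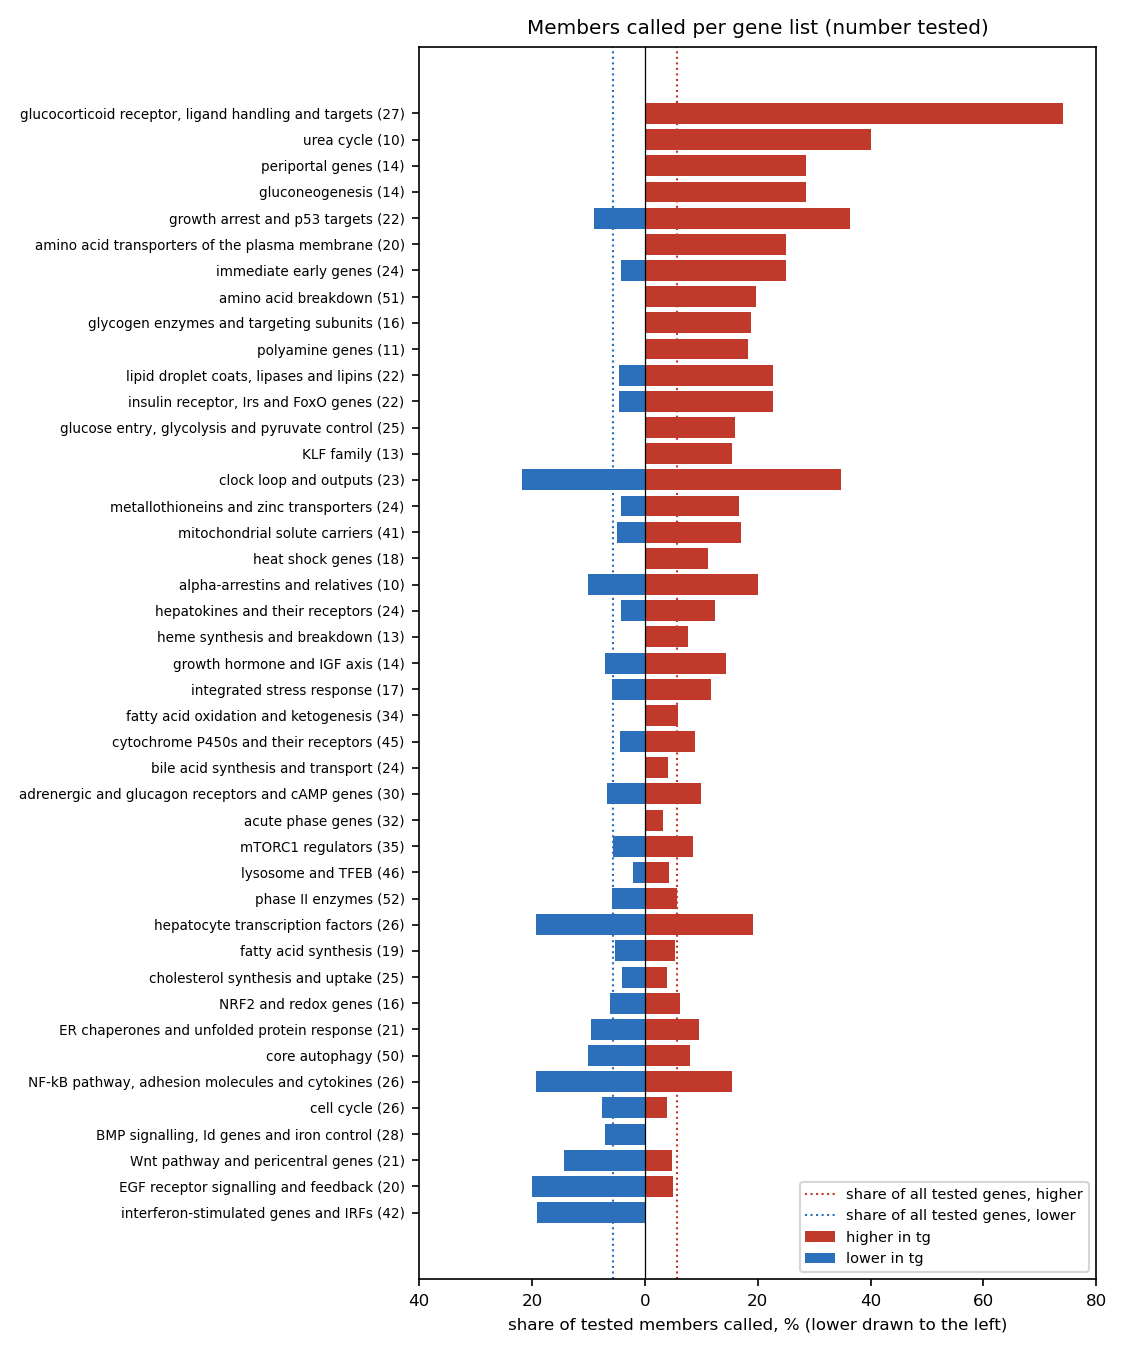
Bars give the share of tested members called higher (red, to the right) and lower (blue, to the left) for the 43 gene lists with a call, each with its number of tested members. Dotted lines are the shares of all tested genes, 5.75% higher and 5.64% lower; 5 lists without a call and the cell type markers are not drawn.

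Among the genes with the smallest p-values, Atp1b1, the beta subunit of the sodium pump, was at 78.8, 53.01, 47.3, 38.2 and 54.5 CPM in wt and 229.8, 238, 232, 235 and 227 CPM in tg livers. The tg livers were nearly level and far above the wt livers, and the rise was 2.09 ± 0.16 (adjusted p = 5.66e-07 by edgeR). Arl15, a small GTPase, was at 12.1, 12.3, 11.8, 11.5 and 9.96 CPM in wt and 23.03, 23.7, 24.7, 22.0 and 22.3 CPM in tg livers, a rise of 1.01 ± 0.09 with little spread in either group. Osbpl11, a lipid-binding protein, rose by 1.395 ± 0.14, from 15.2 ± 1.68 to 40.0 ± 9.64 CPM. Depdc7 (-1.398 ± 0.14) and Dnajc28 (-1.15 ± 0.11), a member of the DnaJ family, fell with groups apart. Ces1b, a carboxylesterase, rose by 1.69 ± 0.19, and Ptp4a1, a phosphatase, by 1.09 ± 0.12. Among the largest falls by fold were also Klhdc7a, at 17.9, 44.4, 54.3, 47.9 and 24.5 CPM in wt and 8.45, 10.7, 9.68, 10.6 and 10.3 CPM in tg livers (-1.92 ± 0.25), Tgm1, a transglutaminase (-2.13 ± 0.39), and Nrep (-2.18 ± 0.46). Wt replicate 1 was the lowest wt liver for each of these 3.

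The libraries that stood apart did so by gene and not by a constant factor. Over the 1134 genes called without tg replicate 3 whose other ranges were apart, that library lay at or past the tg end for 405 (35.7%), at or past the wt end for 388 (34.2%) and between for 341 (30.1%). In the other tg livers 70.7 to 83.9% of such genes lay at or past the tg end. It was within the wt range or beyond it for Dusp1, Arrdc2, Ppp1r3c, Slc25a25 and Cyp2b10. It was the highest of all livers for Noct, Got1, Aass, Slc25a15, Sds, Ass1 and Asl. For wt replicate 1, over 1386 genes, 423 (30.5%) lay at or past the wt end and 582 (42.0%) at or past the tg end. In the other wt livers at most 17.3% lay at or past the tg end. The depth of tg replicate 3 was within the range of the other tg livers. Its mitochondrial share, 11.4%, was the highest of the tg livers, though nearly level with that of tg replicate 1. Its ribosomal protein share, 1.66% of counts, was above those of the other tg livers (at most 1.49%) and within the range of the wt livers (1.53 to 1.82%). What set tg replicate 3 and wt replicate 1 apart was not tested.

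The effect after 4 h was set beside that of 2 h of light, measured in other mice. Light began at zeitgeber time 5.5 in the 2 h mice and at 3.5 in the 4 h mice. Duration and starting hour thus cannot be told apart. At 2 h 270 genes were called (2.16%), 142 higher (1.14%) and 128 lower (1.02%), and 204 were called at both durations, 14.3% of the 4 h calls and 75.6% of the 2 h calls, each with the same sign at both. By edgeR 0 genes passed for the difference between the effects, though 723 had p-values below 0.05 before adjustment. The count was 6 with DESeq2 and 0 with limma-voom. With edgeR 3 genes passed without wt replicate 1 of 4 h. Lgr5 was -1.39 ± 0.19 at 4 h and -0.15 ± 0.18 at 2 h, a difference of -1.24 ± 0.26 (adjusted p = 0.367 by edgeR). Osbpl11 was 1.395 ± 0.14 and 0.39 ± 0.14, a difference of 1.01 ± 0.20. Smad9 was -1.49 ± 0.32 and 0.10 ± 0.33, and Tgm1 was -2.13 ± 0.39 and -0.21 ± 0.38. Within the clock Arntl was 1.29 ± 0.32 and -0.24 ± 0.38, whereas Nr1d1 was -1.75 ± 0.35 and -1.64 ± 0.38. Alas1, the first enzyme of heme synthesis, was not called at 4 h (0.16 ± 0.30) and rose at 2 h (1.66 ± 0.32). Each of these differences had an adjusted p above 0.05, which does not show that the effects were alike.

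**Figure D5:**
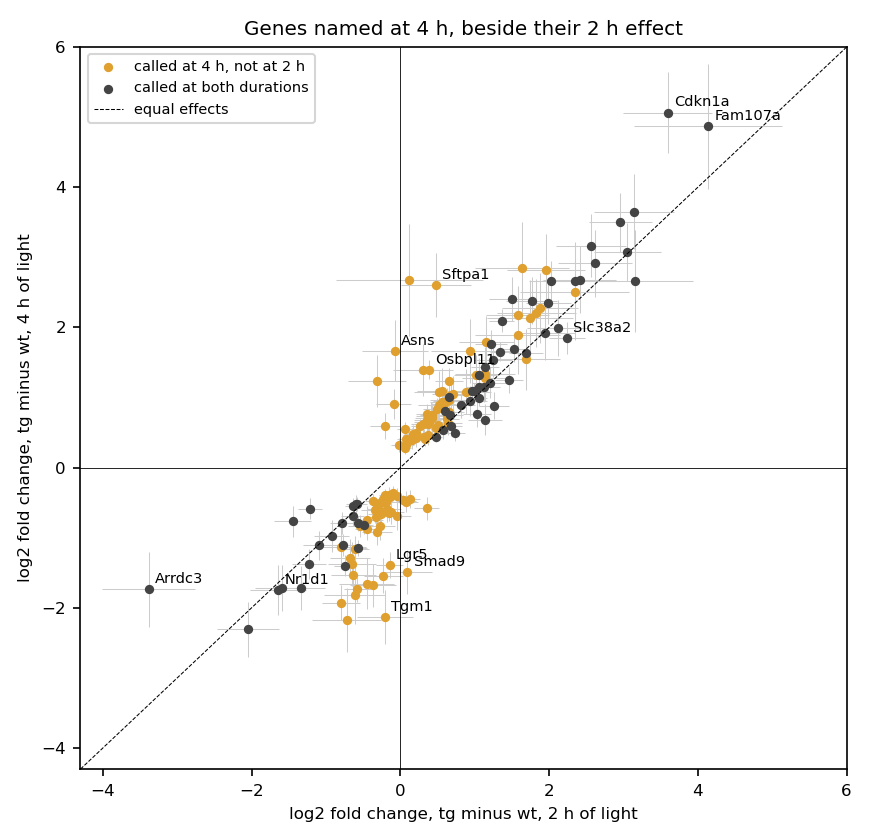
Log2 fold change of tg against wt at 4 h (vertical) against that at 2 h (horizontal) for the 173 named genes called at 4 h, with bars of 1 standard error and a dashed line of equal effects. Dark points are the 64 called at both durations and orange points the 109 called at 4 h alone; 151 of the 173 have the larger absolute value at 4 h, a comparison affected by their choice at 4 h.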

How the data were processed

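Liver RNA was poly-A selected and made into stranded libraries, per the labels' protocols. For alignment and quantification, STAR and Salmon (1.4.0) appear in the submitters' processing notes, with DESeq2 (1.30.0) and the build GRCm38.p6. How estimates of Salmon became whole numbers is not stated there. The deposited table holds whole-number counts per gene. The authors' deposited tables of comparisons, which give a mean normalized signal, log2 fold changes and p-values, supplied gene symbols, and that of 4 h called 1605 genes, 1324 of them among the 1423 called here.

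Counts of 12493 genes (minimum count 10, total 15) were fitted in edgeR 4.0.16 with a term for each of the 4 groups over all 19 libraries, robustly, with TMM scaling; the fit was tested on simulated data. DESeq2 1.42.0 and limma-voom 3.58.1 were alternatives. Whether mice of a group shared a litter or cohort is not labelled. Members, lists and tests were chosen with earlier results of these data known. Named genes were to be the 15 largest rises and falls, 10 smallest p-values and 8 largest rises and falls in CPM, from each list at most 5 called members by p, and for the difference between durations the 4 smallest p-values; others named beside their list were chosen after their values were seen, and some that this rule names are not reported here. Positions follow GENCODE M21.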

Additional observations from a re-analysis of the deposited data

Results flagged for a closer look

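Within groups of 5, single livers stood far from the other 4 for 30 of 320 gene and group pairs. These pairs came from 160 of the genes named in the text. The measure was the gap to the nearest liver over the range of the group (above 0.71), both taken on log2 CPM. Chance does so in about 1 in 20 groups where log2 values follow a normal distribution. Of the 30 pairs 20 were tg replicate 3, which was the lowest liver for 17 genes and the highest for 3. It was low for Cdkn1a (8.13 CPM), Fam107a (3.86), Tmem100 (0.718), Dusp1 (11.2), Trp53inp1 (99.5), Arrdc2 (6.73), Trib3 (3.89), Ppp1r3c (10.2) and Ahr (31.8 CPM). The same holds for the abundant genes Tat (2398 CPM), Pck1 (3447), Errfi1 (1091), Lpin1 (291), Plin5 (131), Slc38a2 (130.4), Alas1 (146) and Fkbp5 (122 CPM). It was high for Noct (151 CPM), Asl (1145) and Irf1 (20.4 CPM).

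Among other livers, wt replicate 1 was high for Nedd4l (27.4 CPM) and low for Slc25a42 (69.5 CPM), and wt replicate 3 was low for Tmem100 (0.0315 CPM) and high for Cdk6 (28.7 CPM). Wt replicate 4 was low for Depdc7 (22.6 CPM) and Onecut2 (50.2 CPM), and wt replicate 5 for Tef (164 CPM). In tg replicate 1 Smad9 was high at 8.45 CPM, in tg replicate 5 Hnf4a at 951 CPM, and in tg replicate 4 Hamp was low at 338 CPM. What set any of these livers apart was not tested.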

How the results depend on the processing

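The count of called genes was 1363 to 1442 under another scaling or filter on low counts, 1379 with limma-voom, 1730 with DESeq2 and 1129 with the 4 h libraries alone, against 1423. Without 1 library it ran from 895 to 1887, with 458 to 1002 genes higher and 437 to 885 lower. Alternatives added after seeing the data gave 1994 genes without tg replicate 3 and wt replicate 1, and 1630 with offsets for transcript length. The effect that differs between 4 h and 2 h was called for 6 genes with DESeq2, for 0 to 3 without 1 library, and for 1 gene without both libraries. The tg minus wt difference in mitochondrial share was 0.112 points, and -0.654 to 0.549 without 1 library, the negative value being that without wt replicate 1.

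Replicate numbers were not used to pair the samples in the main fit. Same-numbered tg and wt livers had correlations of -0.07, 0.17, 0.18, -0.11 and 0.11, and different-numbered ones ran from -0.39 to 0.28. These values cannot show whether livers of the same number shared a cohort. The fit with the replicate block called 1072 genes, 994 of them shared with the 1423.

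No called gene named in the text changed sign, and 160 of the named genes were followed in this way. Without 1 library, genes that were not called ran from -0.0159 to 0.43 (Alas1), -0.0727 to 0.14 (Fbp1), -0.0419 to 0.36 (Hamp), -0.11 to 0.0328 (Hsd11b1), -0.0659 to 0.0169 (Nr1d2), -0.0636 to 0.0567 (Otc) and -0.0415 to 0.0541 (Rptor). Without both libraries Fbp1 was -0.0185, Hamp -0.12 and Hsd11b1 0.0448. With length offsets Hsd11b1 was 0.0197, Mtor -0.0407, Otc 0.0242 and Rptor -0.0504, Rptor was -0.0259 with upper-quartile scaling, and Otc was 0.002 with the 4 h libraries alone. The causes were not tested. Counting error is largest for genes with a mean under 1 CPM, of which 53 were called.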
